A study of Mus musculus with 6 samples.

Results

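The genes described here are *Disp2* and 8 genes at the centre of Hedgehog reception and response, *Ptch1*, *Smo*, *Gli1*, *Gli2*, *Gli3*, *Hhip*, *Gas1* and *Boc*, which are 9 of the 55487 genes counted in smooth muscle cells of mouse pulmonary arteries (mPASMCs). *Disp2* was chosen because of its strong rise after *Snhg18* knockdown, so its values are given as a description without a test. The other 8 genes were chosen by their place in the pathway, with earlier results of these data known.

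Hedgehog ligands are lipid-modified proteins, and the producing cell releases them with the help of Dispatched proteins. In the receiving cell the ligand binds PTCH1, assisted by the co-receptors BOC, CDON and GAS1, and thereby relieves the inhibition of SMO, which then acts through the primary cilium. SMO activity shifts the GLI transcription factors from repressor to activator forms, and GLI1, PTCH1 and HHIP are classical transcriptional targets that report the output of the pathway. DISP1 is the established release factor for the ligands, while DISP2 is a related protein whose function is less well known. In the lung, Hedgehog ligands made by epithelium signal to the mesenchyme that gives rise to smooth muscle.

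To look for genes downstream of *Snhg18*, a long noncoding RNA that hosts a small nucleolar RNA, mPASMCs were transfected with a control siRNA (si-NC) or an siRNA directed against *Snhg18* (si-*Snhg18*), and their mRNA was sequenced. Each group had 3 libraries, numbered 1 to 3. The cells were purchased and used at early passages, and the age of the mice, the oxygen level and the time after transfection are not given for the sequenced cells. The genotype label is Control for the si-NC libraries and Snhg18 knockdown for the others, and no other treatment is named for either group.

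The libraries held between 18097718 and 25988746 counted reads, with si-*Snhg18* 3 the smallest, and 3 reads correspond to between 0.115 and 0.164 CPM (reads scaled to the size of the library, normalized by TMM). *Snhg18* fell from 22.7 ± 0.711 to 10.6 ± 0.59 CPM (SD, n = 3 each), which is a log2 fold change of -1.10 with an adjusted p of 0.00727 by the quasi-likelihood test of edgeR. Of 14531 tested genes, 7.36% had an adjusted p under 0.05, 3.65% higher and 3.71% lower in si-*Snhg18* cells, and the median log2 fold change was 0.01. With the replicate number as a block this share was 27.2%, 13.6% in each direction, and without si-*Snhg18* 2 it was 22.1%. No tested gene passed without si-NC 1, si-NC 3 or si-*Snhg18* 3, so every call below is lost in those 3 fits. Nothing states that the libraries came from separate cultures, so the p-values measure the spread between these libraries, and an exact permutation test of 3 against 3 cannot give a two-sided p under 0.1. In these bulk samples, fewer cells of a type and less RNA per cell cannot be told apart.

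*Disp2*, the member picked for its strong rise, was 5.76-fold more abundant in si-*Snhg18* cells. None of the 7 other members that could be tested passed the edgeR test. At an unadjusted p under 0.05 there was 1 of these 7, against 3613 of all 14531 tested genes. DESeq2 gave 1 of the 7 at an adjusted p under 0.05, where 14.6% of all tested genes passed. In each case the gene was *Hhip*. On the log2 scale *Hhip* had the largest difference among those 7, with a mean of 8.09 CPM with si-NC and 4.2 CPM with si-*Snhg18*. *Smo*, *Gli3* and *Gas1* had values above 0 on the log2 fold change scale, and *Ptch1*, *Gli2*, *Hhip* and *Boc* had values below 0. *Gli1* was at the limit of detection in both groups. Outside the 9 genes, 3 of 34 tested Hedgehog pathway genes passed, 8.82% against 7.36% of all tested genes. With the replicate number as a block these shares were 29.4% and 27.2%. Of the 3, the GLI inhibitor *Sufu* and the sheddase gene *Adam17* rose and the endocytic receptor *Lrp2* fell.

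**Figure D1:**
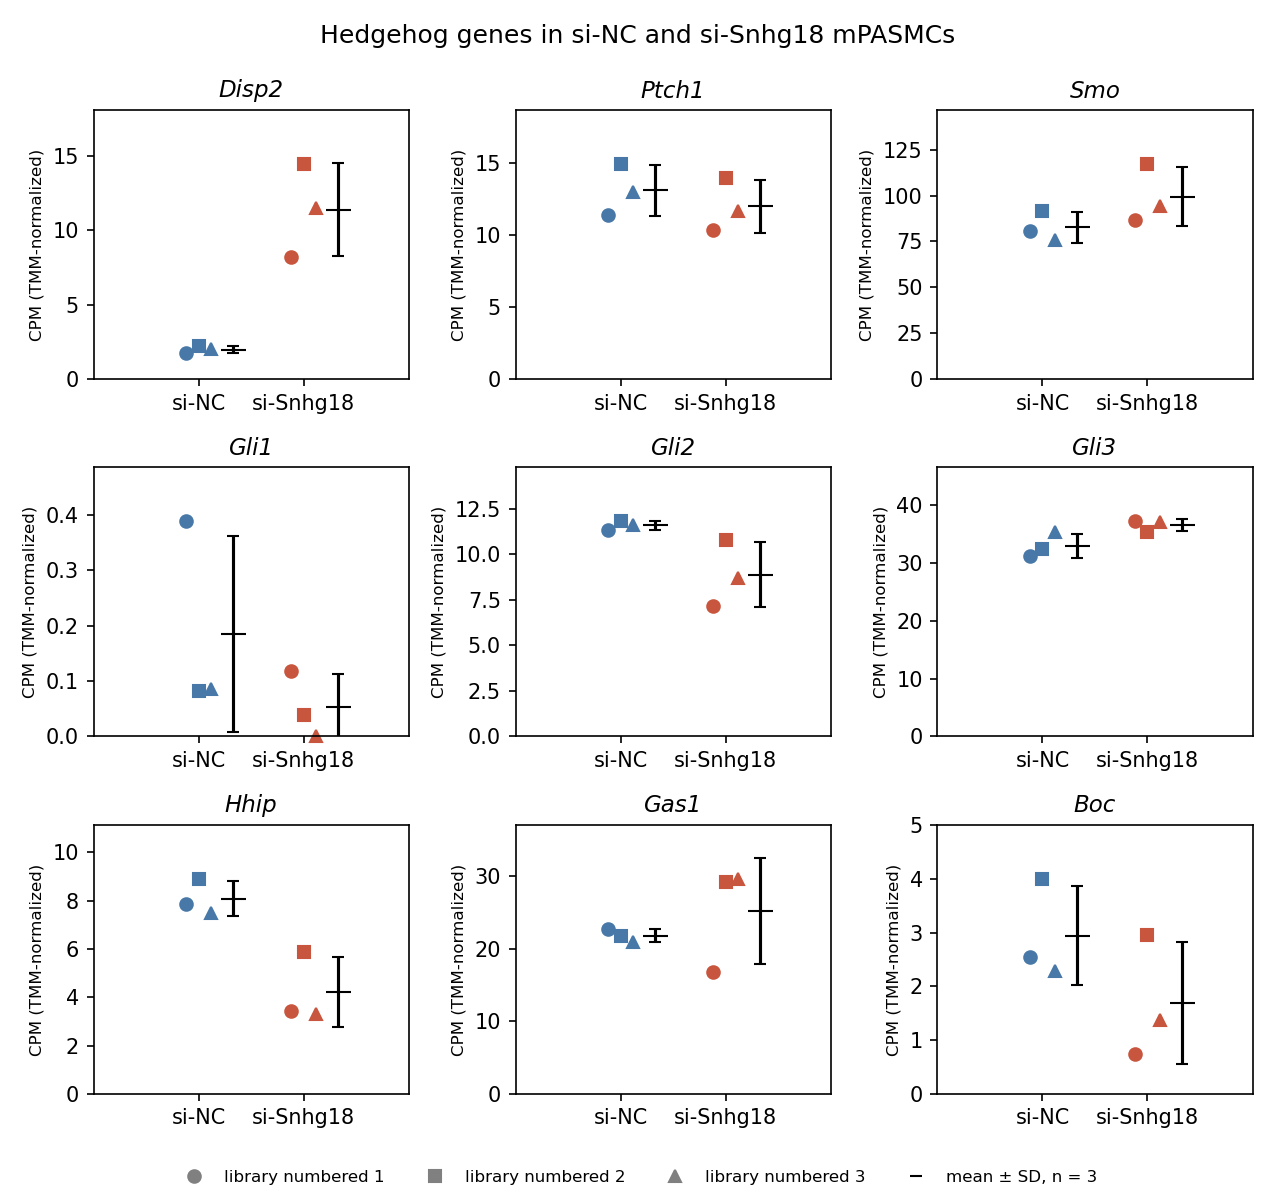
TMM-normalized CPM of the 9 Hedgehog genes in each library, with the symbol giving the library number and black bars the mean ± SD of 3 libraries; each vertical axis starts at 0 and has its own range. The si-*Snhg18* points of *Disp2* lie between 8.23 and 14.5 CPM against 1.73 to 2.21 CPM in si-NC cells. For *Gli2*, *Gli3* and *Hhip* the groups do not overlap, by narrow margins for *Gli2* and *Gli3*. The same holds for 30.9% of all tested genes.

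*Disp2* (ENSMUSG00000040035) lies on the plus strand of chromosome 2 (GRCm38), from 118779719 to 118811293. It received 40, 54 and 47 reads in si-NC libraries 1 to 3 and 208, 377 and 210 reads in si-*Snhg18* libraries 1 to 3. In CPM these were 1.73, 2.21 and 1.99 against 8.23, 14.5 and 11.5. The lowest si-*Snhg18* library was far above the highest si-NC library, and si-*Snhg18* 2 was the highest of all. The means were 1.97 ± 0.24 and 11.4 ± 3.13 CPM (SD, n = 3 each), with a log2 fold change of 2.53 and a standard error of 0.25. Between same-numbered libraries the difference in log2 CPM was 2.20, 2.67 and 2.48.

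The level of *Disp2* relative to other genes depends on the length that is used. The table gives an exon length of 1732 bases, which is that of the annotated transcript Disp2-204, with 10 exons and 906 coding bases. The longest transcript, Disp2-201, has 6626 bases in 8 exons, of which 4035 are coding. On the deposited length *Disp2* was at 1.14 ± 0.138 CPM per kb in si-NC cells and 6.59 ± 1.81 CPM per kb in si-*Snhg18* cells (SD, n = 3 each). On the longest transcript the same reads give 0.298 ± 0.0362 and 1.72 ± 0.473 CPM per kb. The fold change is the same on either length, since gene counts do not show which transcript the reads came from. For 86.0% of the genes found in the annotation the deposited length was that of the longest transcript, and for 3.05% it was under 0.5 of it.

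Per kb of the longest transcript, the order of the levels in si-NC cells ran from *Smo* (21.9 ± 2.20 CPM per kb) through *Gas1* (7.36 ± 0.308), *Gli3* (4.03 ± 0.259), *Gli2* (1.74 ± 0.0372), *Ptch1* (1.26 ± 0.171), *Hhip* (0.891 ± 0.0803), *Boc* (0.662 ± 0.208) and *Disp2* to *Gli1* (0.0456 ± 0.0435), each as mean ± SD of 3 libraries. *Hhip* and *Boc* overlapped in this order, and so did *Gli2* and *Ptch1* when the deposited length of *Ptch1* was used. In si-*Snhg18* cells *Disp2* stood above *Gli2* (1.34 ± 0.272) and *Ptch1* (1.15 ± 0.177) by its mean, with libraries that overlapped theirs. The signal transducer *Smo* was thus the most abundant member and the transcriptional readout *Gli1* the least abundant, in both groups.

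**Figure D2:**
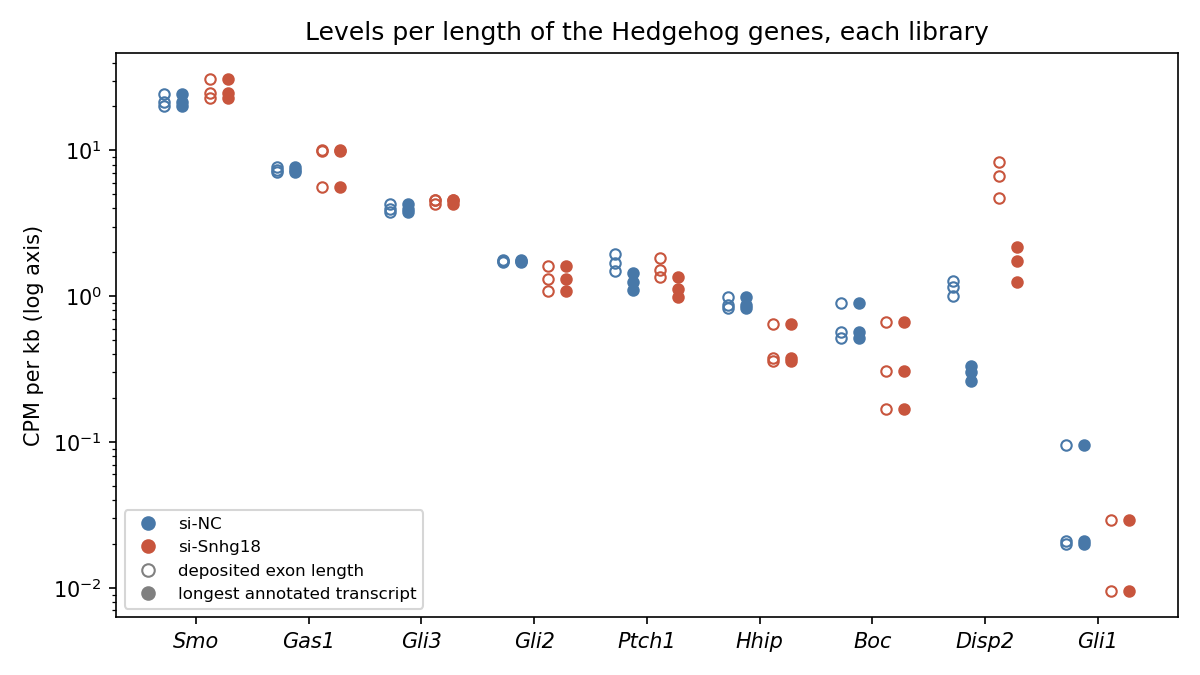
CPM per kb of each library on a log axis, with open circles for the deposited exon length and filled circles for the longest annotated transcript; the si-*Snhg18* 3 value of *Gli1* is 0 and not drawn. *Disp2* is the gene whose level moves most with the length, from a si-*Snhg18* mean of 6.59 to 1.72 CPM per kb.

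*Disp1*, the release factor for Hedgehog ligands, was more abundant than *Disp2* in both groups per kb of the longest transcript, with means of 7.89 CPM per kb in si-NC cells and 6.26 CPM per kb in si-*Snhg18* cells. It was at 31, 51.6 and 35.4 CPM in si-NC libraries 1 to 3 and at 21.2, 44.9 and 27.5 CPM in si-*Snhg18* libraries 1 to 3. The groups overlapped, and library 2 was the highest in each. The log2 fold change was -0.33 with a standard error of 0.31 (adjusted p = 0.555 by edgeR). Blocked by replicate number, it was -0.36 (adjusted p = 0.0247 by edgeR), which changes the call. *Disp2* made up 4.90% ± 0.697 of the reads on *Disp1* and *Disp2* together in si-NC cells and 27.3% ± 2.64 in si-*Snhg18* cells (SD, n = 3 each). Per kb of the longest transcripts these shares were 3.74% ± 0.537 and 22.0% ± 2.28, and per kb of the deposited lengths they were 12.7% ± 1.67 and 51.4% ± 3.36. The third Dispatched gene, *Disp3*, had at most 2 reads in any library.

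The ligand genes had few reads in these cells. *Shh* had 2 reads in si-NC 2 and 0 elsewhere. *Ihh* had 5, 0 and 2 reads in si-NC libraries and 0 in each si-*Snhg18* library, where a count of 0 allows up to 0.119, 0.115 and 0.164 CPM. *Dhh* had between 4 and 10 reads in every library. None of these genes, nor the 3 *Scube* genes, whose products help ligands leave the cell, had enough reads to be tested. Of the 12 ligand and release genes, 4 were tested and 1 rose, where 3.65% of all tested genes rose. It was *Adam17*, which encodes a sheddase of many membrane proteins. Its level was 91.5 ± 0.741 CPM with si-NC and 122 ± 11.9 CPM with si-*Snhg18* (SD, n = 3 each), with a log2 fold change of 0.42 and an adjusted p of 0.0377. Among fits without 1 library it passed in the fit without si-*Snhg18* 2 and had adjusted p-values of 0.129 and 0.0836 when si-NC 2 or si-*Snhg18* 1 was left out. With no filter on low counts its adjusted p was 0.0502. *Hhat*, the acyltransferase that palmitoylates the ligands, had a log2 fold change of -0.27 (adjusted p = 0.285).

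*Ptch1* (ENSMUSG00000021466), the receptor, lies on chromosome 13 from 63508328 to 63573598 on the minus strand. Its levels were 11.4, 14.9 and 13.0 CPM in si-NC libraries 1 to 3 and 10.3, 14.0 and 11.7 CPM in si-*Snhg18* libraries 1 to 3. The groups overlapped almost fully, and library 2 was the highest in each. Its log2 fold change was -0.13 with a standard error of 0.16 (adjusted p = 0.675 by edgeR), and it stayed between -0.26 and -0.03 as libraries were left out in turn.

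*Hhip* (ENSMUSG00000064325), on chromosome 8 from 79965851 to 80058006 on the minus strand, encodes a membrane protein that binds and sequesters Hedgehog ligands. It was at 7.86, 8.90 and 7.50 CPM in si-NC libraries 1 to 3 and at 3.44, 5.88 and 3.29 CPM in si-*Snhg18* libraries 1 to 3. The groups did not overlap, with si-*Snhg18* 2 closest to the si-NC libraries. Over all tested genes, 30.9% had groups that did not overlap, and 3 of the 7 tested members other than *Disp2* did not. The log2 fold change was -0.94 with a standard error of 0.26 (adjusted p = 0.0819 by edgeR). Blocked by replicate number, it was -0.97 (adjusted p = 0.00864), and DESeq2 gave an adjusted p of 0.0103. Without si-*Snhg18* 2 it was -1.27 (adjusted p = 0.00809), and in the other fits without 1 library the adjusted p lay above 0.05, up to 0.259.

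*Boc* (ENSMUSG00000022687), on chromosome 16 from 44485049 to 44558897 on the minus strand, encodes an immunoglobulin superfamily co-receptor. It was at 2.55, 4.00 and 2.29 CPM in si-NC libraries 1 to 3 and at 0.752, 2.96 and 1.37 CPM in si-*Snhg18* libraries 1 to 3. Each si-*Snhg18* library was below the si-NC library of its number, but the groups overlapped. Its log2 fold change was -0.79 with a standard error of 0.52 (adjusted p = 0.391 by edgeR), and without si-*Snhg18* 2 it was -1.50 (adjusted p = 0.0452). *Gas1* (ENSMUSG00000052957), on chromosome 13 from 60174405 to 60177365 on the minus strand, encodes a lipid-anchored co-receptor. It was at 22.7, 21.8 and 20.9 CPM with si-NC and at 16.7, 29.1 and 29.6 CPM with si-*Snhg18*. The si-*Snhg18* libraries lay on both sides of the si-NC libraries, which agreed closely. The log2 fold change was 0.21 with a standard error of 0.22 (adjusted p = 0.605 by edgeR).

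Among the 7 further reception genes, 6 were tested, 0 rose and 1 fell, where 3.71% of all tested genes fell. Their median log2 fold change was -0.47, against 0.01 over all tested genes. The gene that fell was *Lrp2*, which encodes megalin, a large endocytic receptor that takes up SHH. It was at 13.0, 12.9 and 10.8 CPM in si-NC libraries 1 to 3 and at 3.96, 7.15 and 4.27 CPM in si-*Snhg18* libraries 1 to 3. The groups were well apart, and the log2 fold change was -1.25 with a standard error of 0.25 (adjusted p = 0.0374). Its adjusted p was 0.115 without si-NC 2, 0.093 without si-*Snhg18* 1 and 0.164 without si-*Snhg18* 3. *Cdon*, the co-receptor closest to *Boc*, was at 10.1 ± 1.12 and 7.31 ± 1.18 CPM (SD, n = 3 each; log2 fold change -0.47, adjusted p = 0.151). With the replicate number as a block, where 13.6% of all tested genes were lower, 4 of the 6 were lower, among them *Lrp2*, *Cdon* (adjusted p = 0.0492) and the glypican gene *Gpc6* (0.0389).

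The promoters of *Ptch1* and *Hhip*, as classical GLI targets, and of *Sufu*, the pathway gene that rose with the smallest adjusted p, were read from RefSeq, on GRCm38.p6, each as the 300 bases from 250 before to 50 after the annotated start. They are written 5′ to 3′ on the strand of the gene. Capitals mark the GC box, searched as GGGCGG or its reverse complement CCGCCC, the core of the sites bound by SP1 and related factors. The windows are chr13:63565686-63565985 on the minus strand for *Ptch1*, chr8:80057959-80058258 on the minus strand for *Hhip* and chr19:46396646-46396945 on the plus strand for *Sufu*.
Ptch1: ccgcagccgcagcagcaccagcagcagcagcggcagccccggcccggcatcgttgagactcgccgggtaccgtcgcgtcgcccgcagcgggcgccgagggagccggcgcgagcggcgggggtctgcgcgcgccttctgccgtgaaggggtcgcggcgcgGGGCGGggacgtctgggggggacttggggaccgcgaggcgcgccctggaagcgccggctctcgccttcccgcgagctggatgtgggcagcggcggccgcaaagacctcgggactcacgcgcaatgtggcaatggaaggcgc
Hhip: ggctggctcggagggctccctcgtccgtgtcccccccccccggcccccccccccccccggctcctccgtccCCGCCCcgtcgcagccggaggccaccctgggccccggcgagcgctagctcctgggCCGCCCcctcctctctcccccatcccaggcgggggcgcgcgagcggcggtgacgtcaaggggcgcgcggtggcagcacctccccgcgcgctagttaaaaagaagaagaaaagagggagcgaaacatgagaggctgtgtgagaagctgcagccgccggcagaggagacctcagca
Sufu: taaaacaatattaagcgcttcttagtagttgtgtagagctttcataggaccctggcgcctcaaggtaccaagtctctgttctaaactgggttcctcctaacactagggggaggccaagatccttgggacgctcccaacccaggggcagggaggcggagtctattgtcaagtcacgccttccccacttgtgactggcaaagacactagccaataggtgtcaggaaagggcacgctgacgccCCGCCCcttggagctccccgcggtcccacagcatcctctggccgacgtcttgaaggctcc
The *Ptch1* window lies inside the span of the gene in the deposited table. The *Hhip* window holds 2 GC boxes, and those of *Ptch1* and *Sufu* hold 1 each.

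Of the 9 members, 6 had a promoter in the RefSeq table, *Ptch1*, *Smo*, *Gli2*, *Gli3*, *Hhip* and *Gas1*. The GC box occurred in 5 of these 6 windows, all but that of *Smo*, and in 35.7% of all 32851 promoters in the table. The 6 windows held between 62.3% and 76.3% G or C, and the shares are not adjusted for base content. The GLI consensus, GACCACCCA or its reverse complement TGGGTGGTC, occurred in 0 of the 6 windows and in 83 of all promoters (0.253%). Neither motif contains the other. Such a match is a string of letters in a window, and its absence says nothing about binding elsewhere at the gene.

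*Smo* (ENSMUSG00000001761), the transducer, lies on chromosome 6 from 29735503 to 29761365 on the plus strand. It was at 80.6, 91.8 and 75.6 CPM in si-NC libraries 1 to 3 and at 86.9, 117 and 94.1 CPM in si-*Snhg18* libraries 1 to 3. Each si-*Snhg18* library was above the si-NC library of its number, but si-*Snhg18* 1 was below si-NC 2. Its log2 fold change was 0.27 with a standard error of 0.13 (adjusted p = 0.275 by edgeR). Blocked by replicate number, it was 0.26 (adjusted p = 0.0298), so *Smo* and *Hhip* were the 2 of 7 tested members, 28.6%, that passed with the block, a share near the 27.2% of all tested genes.

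*Sufu*, which encodes the cytoplasmic inhibitor that holds GLI proteins back, was the clearest change in the control of SMO and GLI. It was at 34.5, 35.6 and 35.3 CPM in si-NC libraries 1 to 3 and at 56.9, 53.4 and 54.1 CPM in si-*Snhg18* libraries 1 to 3. The libraries of each group were close together and the groups were far apart. *Sufu* rose 1.56-fold, a log2 fold change of 0.64 with a standard error of 0.07 (adjusted p = 0.00871 by edgeR). When si-NC 1, si-NC 3 or si-*Snhg18* 3 was left out, its adjusted p was 0.082, 0.0755 or 0.0791, and it passed in the fits without each of the other 3 libraries. *Kif7*, a ciliary kinesin that works with SUFU on GLI proteins, was at 7.64 ± 2.18 and 8.12 ± 1.23 CPM (SD, n = 3 each; log2 fold change 0.09, adjusted p = 0.859), and its sign turned without si-NC 3 (-0.13) and without si-*Snhg18* 2 (-0.05). All 24 genes of this group were tested, and *Sufu* was the 1 that passed, 4.17% against 7.36% of all tested genes. With the block 4 passed, 16.7% against 27.2% of all tested genes. Among the higher ones were *Grk2* (adjusted p = 0.0101), the kinase that phosphorylates SMO, and *Ulk3* (0.0221), a kinase acting on GLI proteins. In the lower direction there was *Tulp3* (0.00666), an adaptor for receptor entry into cilia.

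**Figure D3:**
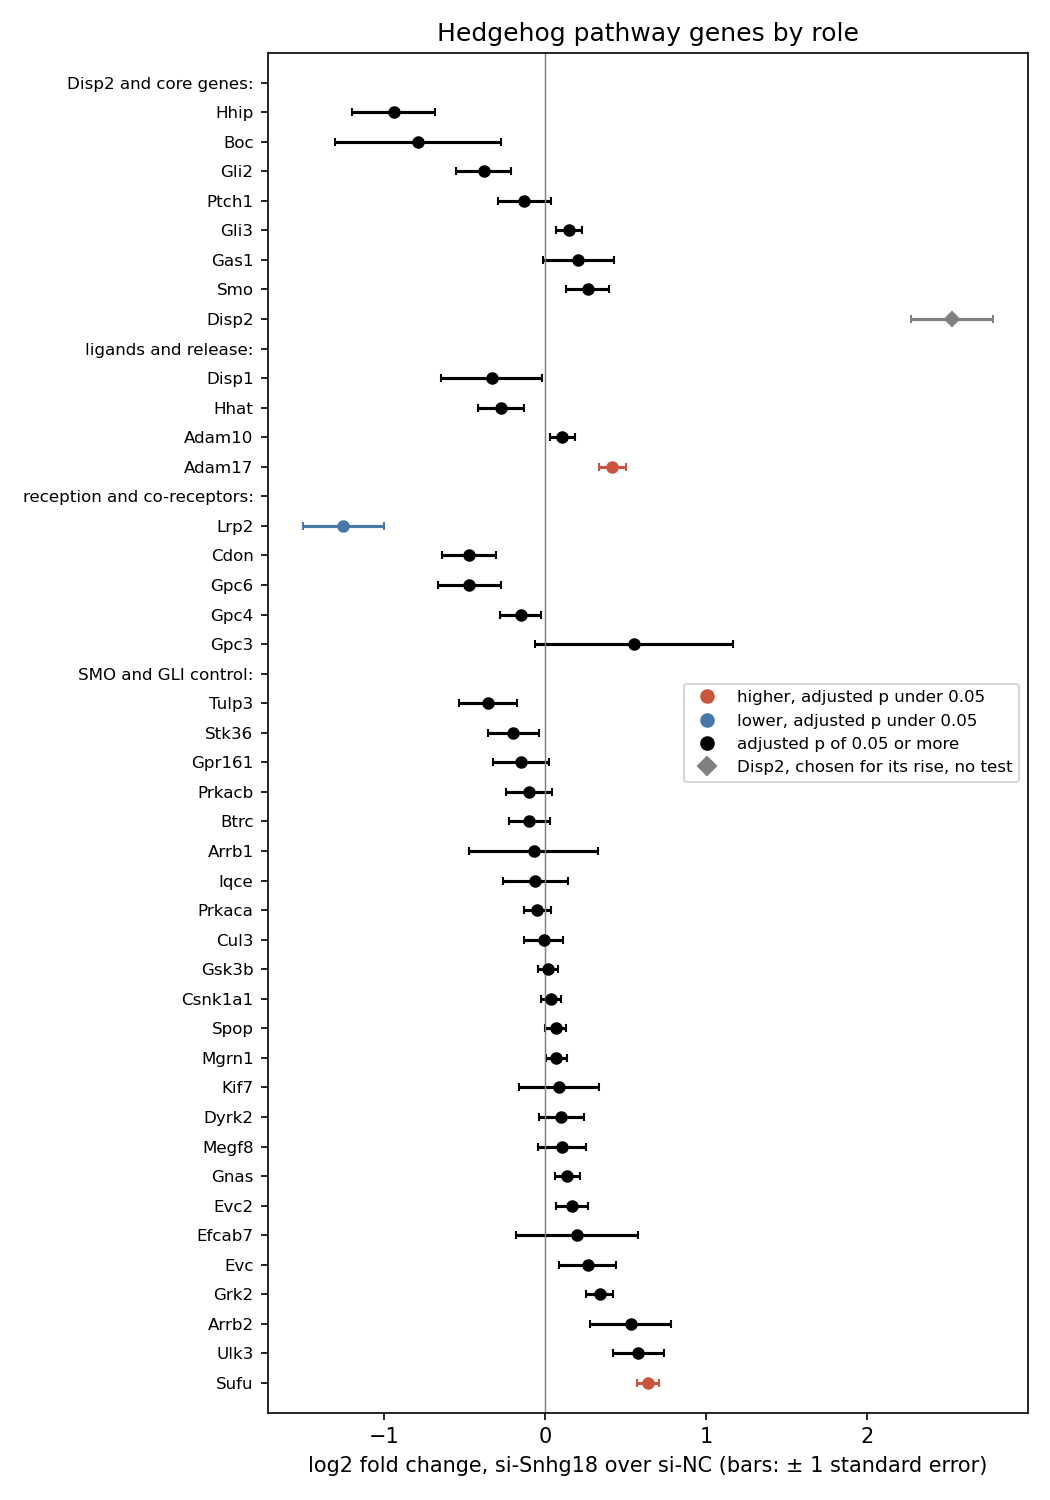
Log2 fold change of the tested Hedgehog genes reported here, si-*Snhg18* over si-NC, grouped by role, with bars of ± 1 standard error; red points are higher and blue points lower at an adjusted p under 0.05, and *Disp2* is a gray diamond without a test. *Adam17* (0.42) and *Sufu* (0.64) are the red points, *Lrp2* (-1.25) is the blue point, and the core genes other than *Disp2* are black.

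The GLI factors differed in level, and neither *Gli2* nor *Gli3* passed the test. *Gli1* (ENSMUSG00000025407), on chromosome 10 from 127329882 to 127341974 on the minus strand, had 9, 2 and 2 reads in si-NC libraries 1 to 3 and 3, 1 and 0 reads in si-*Snhg18* libraries 1 to 3. With 17 reads in all, it was not tested. It overlaps *Arhgap9* on the other strand, which had between 5 and 40 reads, and the setting for strand in the counting is not given in the sources used here. The other annotated genes that overlap a member had at most 12 reads, the value of *Gm6556* inside *Gli3*. *Gli1*, the activator whose transcription reports pathway output, was thus represented by a few reads in either group.

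*Gli2* (ENSMUSG00000048402), on chromosome 1 from 118834132 to 119053619 on the minus strand, encodes the main activator. It was at 11.3, 11.8 and 11.6 CPM in si-NC libraries 1 to 3 and at 7.16, 10.8 and 8.71 CPM in si-*Snhg18* libraries 1 to 3. The groups did not overlap, although si-*Snhg18* 2 was close to si-NC 1. The log2 fold change was -0.38 with a standard error of 0.17 (adjusted p = 0.227 by edgeR), and without si-*Snhg18* 2 it was -0.55 (adjusted p = 0.0396).

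*Gli3* (ENSMUSG00000021318), on chromosome 13 from 15463235 to 15730026 on the plus strand, encodes the main repressor. It was at 31.1, 32.3 and 35.2 CPM in si-NC libraries 1 to 3 and at 37.2, 35.3 and 37.0 CPM in si-*Snhg18* libraries 1 to 3. The groups did not overlap, by a narrow margin between si-NC 3 and si-*Snhg18* 2. Its log2 fold change was 0.15 with a standard error of 0.08 (adjusted p = 0.317 by edgeR). Per length, *Gli2* made up 30.2% ± 1.22 of *Gli2* and *Gli3* together in si-NC cells and 23.0% ± 4.08 in si-*Snhg18* cells (SD, n = 3 each).

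Of 22 genes listed as GLI targets, 19 were tested, 0 rose and 2 fell, 10.5% against 7.36% of all tested genes. The median log2 fold change of the 19 was -0.40. The genes that fell were *Foxl1*, a mesenchymal forkhead factor, from 19.4 ± 1.99 to 13.5 ± 0.268 CPM (log2 fold change -0.52, adjusted p = 0.0441), and *Rab34*, a GTPase of cilium formation, from 106 ± 1.82 to 79.8 ± 1.92 CPM (log2 fold change -0.41, adjusted p = 0.0169; SD, n = 3 each). Without si-NC 2 their adjusted p-values were 0.0773 and 0.0732, and without si-*Snhg18* 1 they were 0.103 and 0.0532. The largest difference was that of *Ccnd1*, cyclin D1, which has many regulators besides GLI. It was at 419, 721 and 345 CPM in si-NC libraries 1 to 3 and at 63.7, 292 and 104 CPM in si-*Snhg18* libraries 1 to 3. The groups did not overlap but each had a wide spread, and the log2 fold change was -1.69 with a standard error of 0.59 (adjusted p = 0.142). With the block it was -1.90 (adjusted p = 0.00196), and 8 of the 19 tested targets passed, 1 higher and 7 lower, where 27.2% of all tested genes passed and 13.6% passed as lower. Without si-*Snhg18* 2, 6 targets passed, and 22.1% of all genes tested in that fit.

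The cilium transport list was tested in full, and of its 35 genes 3 rose and 1 fell, 11.4% against 7.36% of all tested genes. The median log2 fold change was -0.07. With the block 4 passed, 11.4% against 27.2% of all tested genes. The largest rise was that of *Bbs4*, a subunit of the BBSome, the complex that carries membrane proteins out of cilia. It was at 3.80, 3.51 and 2.58 CPM in si-NC libraries 1 to 3 and at 9.69, 12.5 and 10.1 CPM in si-*Snhg18* libraries 1 to 3. The groups were well apart, with a 3.26-fold rise and a log2 fold change of 1.70 with a standard error of 0.20 (adjusted p = 0.0106). When si-NC 1, si-NC 3 or si-*Snhg18* 3 was left out, its adjusted p was 0.0677, 0.07 or 0.08. *Tctn1*, of the transition zone, rose by 0.48 on the log2 scale (adjusted p = 0.0444) and *Kif3b*, a subunit of the kinesin that moves cargo toward the ciliary tip, by 0.26 (adjusted p = 0.0466). *Wdr35*, of the complex that moves cargo back, fell by 0.50 on the log2 scale (adjusted p = 0.0271). The last 3 calls were lost without si-NC 2 and without si-*Snhg18* 1 as well, with adjusted p-values from 0.0634 to 0.161.

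DISP2 and PTCH1 belong to a family of membrane proteins with a sterol-sensing domain, which includes proteins of cholesterol handling. Of the 10 other family genes listed, 6 were tested, 3 rose and 0 fell, 50% against 7.36% of all tested genes. *Npc1*, the lysosomal cholesterol exporter, rose from 103 ± 7.90 to 174 ± 13.7 CPM (SD, n = 3 each), which is a log2 fold change of 0.76 with an adjusted p of 0.0106. *Scap*, the escort of the SREBP factors, rose by 0.33 on the log2 scale (adjusted p = 0.0377). Without si-NC 2 the adjusted p-values of *Npc1* and *Scap* were 0.0501 and 0.0791, and without si-*Snhg18* 1 they were 0.0346 and 0.0834. The 3 genes of the list that did not pass, among them *Disp1* and *Ptchd4*, had log2 fold changes below 0. With the block each was lower and all 6 passed, where 27.2% of all tested genes did. *Ptchd4* had 9.96 ± 4.21 and 5.49 ± 4.25 CPM (SD, n = 3 each; adjusted p = 0.425, and 0.0398 with the block).

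The genes around *Disp2* were examined within 200 kb on either side. Of 15 neighbours, 7 were tested, 1 rose and 0 fell, 14.3% against 7.36% of all tested genes. The gene that rose was *Bahd1*, which encodes a heterochromatin protein and lies 89084 bases away. It was at 43.9, 42.6 and 45.3 CPM in si-NC libraries 1 to 3 and at 56.5, 54.8 and 57.3 CPM in si-*Snhg18* libraries 1 to 3. The groups did not overlap, and the log2 fold change was 0.35 with a standard error of 0.07 (adjusted p = 0.0322, and 0.116 without si-NC 2 and 0.0875 without si-*Snhg18* 1). With no filter on low counts *Bahd1* did not pass (adjusted p = 0.0821), and *Inafm2* was the neighbour that did (0.0493). The nearest tested gene, the spindle gene *Knstrn*, lies 2710 bases away on the same strand and was at 25.4 ± 4.52 and 16.4 ± 6.90 CPM (SD, n = 3 each; log2 fold change -0.63, adjusted p = 0.264). On the other side, *Ccdc9b* at 17058 bases had -0.16 (adjusted p = 0.774) and *Inafm2* at 30909 bases had 0.67 (adjusted p = 0.0591). *Ivd*, *Chst14* and the checkpoint kinase gene *Bub1b* had 0.13, -0.13 and -0.59 on the same scale. With the block 4 of the 7 passed, 57.1% against 27.2% of all tested genes. *Bahd1* (adjusted p = 0.00809) and *Inafm2* (0.00518) were higher and *Knstrn* (0.0280) and *Bub1b* (0.00966) lower.

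**Figure D4:**
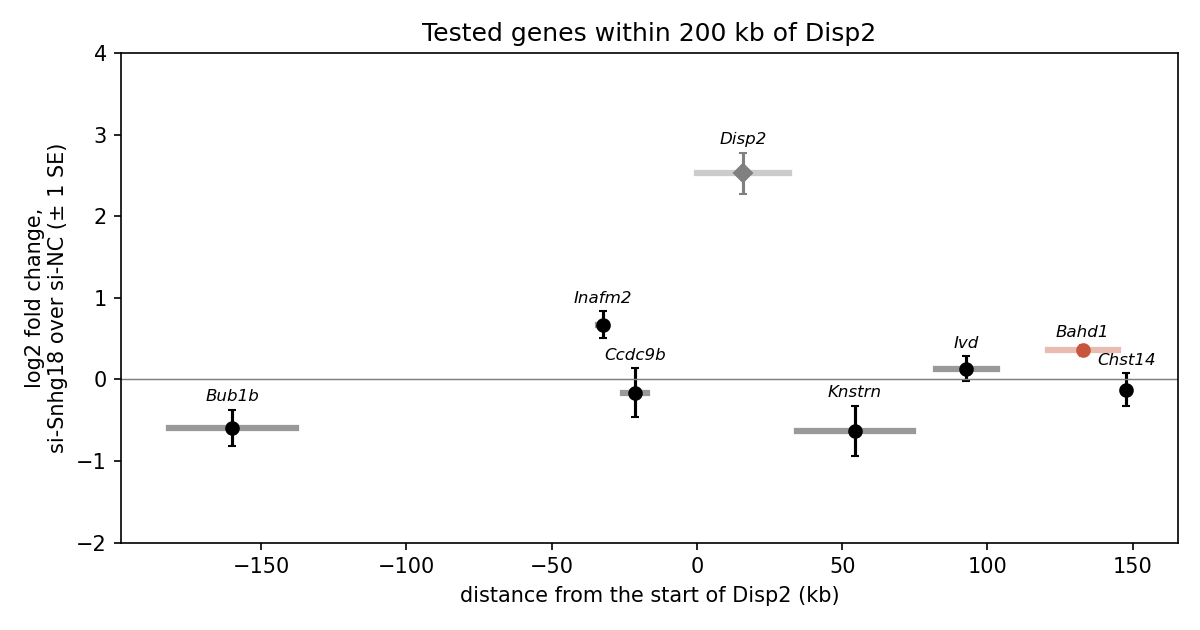
Log2 fold change, si-*Snhg18* over si-NC, of *Disp2* and the 7 tested genes within 200 kb, against the distance of each gene's midpoint from the start of *Disp2* in kb; vertical bars are ± 1 standard error, horizontal bars the extent of each gene, and red marks an adjusted p under 0.05. *Disp2* is at 2.53 and its neighbours lie between -0.63 and 0.67.

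The libraries numbered 2 stood apart for many of these genes. In 6 of the 8 tested members, all but *Gli3* and *Gas1*, library 2 was the highest of its group in both groups, and over all tested genes this was so for 32.2%. *Disp1*, *Ccnd1* and *Ptchd4* had the same order. The difference from si-NC of *Hhip*, *Gli2* and *Boc* was smaller in pair 2 than in the other pairs. For *Hhip* the differences in log2 CPM of pairs 1 to 3 were -1.17, -0.59 and -1.17, for *Gli2* they were -0.65, -0.13 and -0.41, and for *Boc* -1.65, -0.42 and -0.71. The labels do not say what libraries of a number share.

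The 5 genes whose log2 CPM followed *Disp2* most closely over the 6 libraries, among genes whose log2 CPM averaged at least 1, were *Igf1r* (Pearson r 0.998), *Med20* (0.998), *Atp9b* (0.996), *Dnajc1* (0.995) and *Zfp280d* (0.994). These 6 points fall into the 2 groups, so a high r follows from any steady difference between the groups and is given as a description. The log2 fold changes of these genes lay between 0.15 and 0.42, far below that of *Disp2*. *Igf1r*, the receptor for insulin-like growth factor, was at 212 ± 1.97 and 239 ± 4.88 CPM (SD, n = 3 each).

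The markers of smooth muscle were high in all libraries, with a summed level of 1750 to 1896 CPM for 8 genes in si-NC cells and 1202 to 1851 CPM with si-*Snhg18*. *Acta2*, smooth muscle actin, was at 867 ± 65.7 and 743 ± 259 CPM (adjusted p = 0.594, and 0.0111 without si-*Snhg18* 2), and *Tagln*, transgelin, fell from 684 ± 6.88 to 481 ± 70.3 CPM (SD, n = 3 each; log2 fold change -0.51, adjusted p = 0.0427, with 0.127 without si-NC 2 and 0.105 without si-*Snhg18* 1). *Myh11* and *Cnn1* had log2 fold changes of -0.60 and -0.48 (adjusted p = 0.297 and 0.0812, and 0.0207 and 0.0113 with the block). The 6 fibroblast markers, which smooth muscle cells in culture also express, summed to 2766 to 3750 CPM with si-NC and 1592 to 2620 CPM with si-*Snhg18*, and *Pdgfra* had a log2 fold change of -0.34 (adjusted p = 0.189, and 0.0112 with the block).

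The 6 endothelial markers summed to 12.4 to 14.0 CPM with si-NC and 13.3 to 15.4 CPM with si-*Snhg18*, mostly *Cdh5* (9.64 ± 0.221 and 9.99 ± 0.989 CPM, SD, n = 3 each), with *Pecam1* at 14 reads or fewer. The 5 epithelial markers summed to 0.572 CPM or less, with *Epcam* at 3 reads or fewer and *Sftpc* and *Scgb1a1* at 0 in every library. The 6 leukocyte markers summed to 113 to 157 CPM with si-NC, mostly *Cd53*, and to 71.9 to 112 CPM with si-*Snhg18*. *Cd53* fell from 109 ± 12.2 to 50.7 ± 0.359 CPM (SD, n = 3 each; log2 fold change -1.10, adjusted p = 0.00727) and was the 1 of the 4 tested that passed. In the same list *Cd14* averaged 24.5 ± 11.6 CPM with si-NC and 36.9 ± 18.7 CPM with si-*Snhg18* (SD, n = 3 each), with an adjusted p of 0.539, and of 0.00369 with the block, while *Adgre1* was at 0 in every library and *Ptprc* at 8 reads or fewer. The 6 neural and glial markers, from cells in which *Disp2* is known to be expressed, summed to 13.2 to 31.8 CPM with si-NC and 5.26 to 26.1 CPM with si-*Snhg18*, mostly *Tubb3* (adjusted p = 0.581, and 0.0298 with the block). The part of these markers in the values of *Disp2* and the other Hedgehog genes was not tested.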

How the data were processed

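RNA from mPASMCs was sequenced by the authors with the TruSeq Stranded mRNA Library Prep Kit. The submitters' processing notes name HISAT2 and mm10. The counting program, strand setting and read filters are not given in the sources used here. The authors deposited whole-number counts of reads per gene, without normalization, with gene positions on GRCm38 and an exon length per gene, and 0 columns of other samples were present. Groups and replicate numbers came from the sample titles.

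The groups were compared by the quasi-likelihood test of edgeR 4.0.16 (glmQLFit, then glmQLFTest) under R 4.3.3, after TMM normalization and a filterByExpr step (minimum count 10) that left 14531 of 55487 genes. P-values were adjusted by Benjamini-Hochberg over these 14531 genes. All adjusted p-values are from this test unless another is named. The standard error is the log2 fold change divided by the square root of F, and log2 CPM used a prior count of 2. The biological coefficient of variation was 0.218. A floor of 3 reads covers counting error only, since reads carry no molecular identifiers. The script was tested on simulated counts with known changes.

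The deviations of same-numbered libraries from their group means correlated across genes with r of 0.41, 0.742 and 0.359. Those of differently numbered libraries ranged from -0.661 to 0.497, the highest between si-NC 3 and si-*Snhg18* 1, so the values set pair 2 apart and do not separate pairs 1 and 3. As each same-numbered r was over 0.1, a fit blocked by replicate number is given where it changes a call. The differently numbered si-NC 3 and si-*Snhg18* 1 (0.497) and si-NC 1 and si-*Snhg18* 3 (0.186) also passed that mark. These values therefore do not establish that the libraries were paired, and the blocked fit is an alternative that assumes it. Alternatives were RLE factors, no TMM factors, DESeq2 1.42.0, limma-voom (limma 3.58.1), other filters on low counts, the block, and leaving out each library. Other lengths per gene and the GC box were added after seeing the data. A protein comparison was planned and not run.

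The members and gene lists were chosen with earlier results of these data known. The genes named are *Snhg18*, the 9 members, *Shh*, *Ihh*, *Dhh*, *Disp1*, *Cdon*, *Sufu*, *Kif7*, genes of each pathway list that passed and the tested gene with the largest fold change in each, the 5 genes most correlated with *Disp2*, tested genes within 200 kb of it, genes overlapping a member, and 9 cell type markers. Some genes that this rule takes are not reported here. *Hhat*, *Disp3*, *Gpc6*, *Grk2*, *Ulk3*, *Tulp3*, *Ptchd4*, *Cd53*, *Cd14*, *Tubb3*, *Sftpc*, *Scgb1a1* and *Adgre1* fall outside this rule and were named after their values were seen.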

Additional observations from a re-analysis of the deposited data

How the results depend on the processing

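The log2 fold change of *Disp2* lay between 2.48 and 2.54 under the other normalizations, tests and filters, was 2.51 with the replicate block, and lay between 2.31 and 2.72 as each library was left out. Its CPM per kb in si-*Snhg18* cells was 6.59 on the deposited length, 1.72 on the longest transcript and 1.19 on all annotated exons merged. Genes passing over all tested genes numbered 1069, 2124 with DESeq2, 3954 with the block and 0 to 3282 as libraries were left out. The lowest value came without si-NC 1, si-NC 3 or si-*Snhg18* 3 and the highest without si-*Snhg18* 2. At an unadjusted p under 0.05 there were 3613 genes. Members other than *Disp2* passing numbered 0 of 7, with 1 at an unadjusted p under 0.05. The number was 1 with DESeq2, where 14.6% of all tested genes passed, and 2 with the block, where 27.2% did. It was 0 to 3 as libraries were left out. The 3 were *Hhip*, *Gli2* and *Boc* without si-*Snhg18* 2, where 22.1% of all genes tested in that fit passed. The number was 0 with RLE factors, without TMM factors, with limma-voom and with both other filters.

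The list counts below stand beside 7.36% of all tested genes in the main fit and 14.6% with DESeq2. The share was 27.2% with the block and 22.1% without si-*Snhg18* 2, the fit that gave the highest list counts among those without 1 library. Other Hedgehog genes numbered 3 of 34, 4 without TMM factors, 5 with DESeq2, 2 with no filter, 10 with the block and 0 to 5 as libraries were left out. GLI targets numbered 2 of 19, 3 without TMM factors, 4 with DESeq2, 1 with no filter, 8 with the block and 0 to 6 as libraries were left out. Cilium genes numbered 4 of 35, 3 without TMM factors, 3 with limma-voom, 4 with the block, 2 with no filter and 0 to 5 as libraries were left out. Without TMM factors the calls of *Tctn1* (adjusted p = 0.0545) and of the marker *Tagln* (0.0602) were lost. The call of *Kif3b* was lost with limma-voom (adjusted p = 0.0528). Sterol-sensing genes numbered 3 of 6, 1 with no filter, 6 with the block and 0 to 4 as libraries were left out. Neighbours of *Disp2* numbered 1 of 7 and 1 with no filter (*Inafm2* in place of *Bahd1*). They numbered 2 without TMM factors, 2 with DESeq2, 4 with the block and 0 to 4 as libraries were left out. With no filter the calls of *Adam17*, *Bahd1*, *Foxl1*, *Tctn1*, *Kif3b* and *Scap* were lost, with adjusted p-values of 0.0502, 0.0821, 0.0698, 0.0914, 0.159 and 0.0786. The causes of these differences were not tested. With no filter the p-values were adjusted over more genes, and a fit without a library had fewer samples.

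As libraries were left out in turn, the sign changed for *Kif7* (-0.13 to 0.21 on the log2 scale, -0.13 without si-NC 3 and -0.048 without si-*Snhg18* 2), *Ccdc9b* (-0.49 to 0.092, 0.014 without si-NC 2 and 0.092 without si-*Snhg18* 1), *Chst14* (-0.34 to 0.041, the latter without si-*Snhg18* 1) and *Cdh5* (-0.033 to 0.096, the former without si-*Snhg18* 3). Beside the genes for which a blocked value is given, the block changed the call of no other gene named here. Over the 44 single genes followed through the alternatives, 438 values kept their direction and side of the threshold, 98 lost and 29 gained the call, and 6 changed sign. The depth leaves *Gli1*, *Shh*, *Ihh* and *Dhh* below what these libraries can compare.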
